A study of Mus musculus with 8 samples.

Results

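Of the 55292 features in the deposited table of read counts, 37 were imprinted genes of 16 mouse clusters. They were taken by symbol from a list of imprinted genes and grouped by cluster and by the parental allele they are listed for. That allele does not hold in every tissue: Ube3a is maternal in neurons and Trappc9 in brain, and Grb10 is paternal in neurons. The cells were E14, a line of embryonic stem cells from mouse strain 129/Ola, grown without feeder cells on gelatin in serum with leukaemia inhibitory factor. The groups were untreated wild type E14, the untreated knockout (lncSmad7-/- E14, by its label a knockout of the noncoding RNA lncSmad7), and that knockout with the treatment label Smad7 transfected, whose descriptions name 24 h. Each group had 2 libraries of poly(A)-selected RNA. Whether the knockout is 1 clone is not stated, and all transfected cells carry the deletion too. Lists of counts below give wild type first, then the knockout, then the libraries labelled Smad7-transfected.

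Imprinted genes are transcribed mainly from the copy inherited from the mother or mainly from the copy inherited from the father. The choice is set in each cluster by an imprinting control region, a stretch of DNA that is methylated in the germ line of 1 parent only, and often acts through a long noncoding RNA or a CTCF boundary. After fertilisation the mark is kept by Zfp57 and Zfp445, zinc-finger proteins that recruit Trim28, and by Dnmt1 with its partner Uhrf1. Lines of embryonic stem cells are known to vary in imprinted expression. The counts here sum both alleles, so which parental copy a transcript came from was not measured.

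Stretches upstream of the start of 5 members or pairs of members are shown. They lie at a start shared by 2 genes, or at 1 start of a noncoding RNA or gene that leads its cluster. They are RefSeq sequences of GRCm38.p6, written 5′ to 3′ on the strand given, and capitals mark the letters TGCCGC or their complement GCGGCA, the motif that Zfp57 binds when its CpG is methylated.
Peg3 and Usp29, between the 2 starts, chr7:6730432-6730577, minus strand: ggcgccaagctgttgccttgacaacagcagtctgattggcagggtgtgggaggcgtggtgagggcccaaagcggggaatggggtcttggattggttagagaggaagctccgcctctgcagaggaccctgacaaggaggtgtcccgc
Mest, chr6:30737800-30738049, plus strand: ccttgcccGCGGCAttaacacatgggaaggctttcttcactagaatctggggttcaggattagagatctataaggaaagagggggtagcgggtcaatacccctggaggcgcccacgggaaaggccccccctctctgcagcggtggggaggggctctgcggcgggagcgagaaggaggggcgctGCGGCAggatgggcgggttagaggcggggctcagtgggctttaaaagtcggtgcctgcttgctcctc
Meg3, chr12:109540746-109540995, plus strand: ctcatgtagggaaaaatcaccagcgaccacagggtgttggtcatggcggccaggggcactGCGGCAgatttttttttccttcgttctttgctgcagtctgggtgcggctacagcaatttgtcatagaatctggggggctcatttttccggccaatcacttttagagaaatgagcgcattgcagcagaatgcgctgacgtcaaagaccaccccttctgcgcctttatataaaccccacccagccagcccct
Snrpn and Snhg14, a RefSeq start that both share, chr7:60450178-60450427, minus strand: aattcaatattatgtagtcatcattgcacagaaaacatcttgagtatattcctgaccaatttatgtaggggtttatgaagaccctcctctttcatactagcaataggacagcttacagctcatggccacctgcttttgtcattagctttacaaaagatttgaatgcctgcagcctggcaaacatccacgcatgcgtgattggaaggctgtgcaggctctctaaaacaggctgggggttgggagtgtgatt
Kcnq1ot1, chr7:143296550-143296797, minus strand: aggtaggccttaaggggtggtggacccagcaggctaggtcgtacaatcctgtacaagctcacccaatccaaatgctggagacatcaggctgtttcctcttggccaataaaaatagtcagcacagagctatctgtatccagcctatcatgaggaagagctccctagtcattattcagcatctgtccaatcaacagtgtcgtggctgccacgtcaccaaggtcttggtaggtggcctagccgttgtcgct
The motif was present 2 times upstream of Mest and 1 time upstream of Meg3, and in none of the other 3 stretches. These counts depend on the start shown. A window at another Snrpn start, chr7:60005150-60005449, held 1 match. Windows at other starts of Mest, chr6:30733256-30733555, and Meg3, chr12:109545148-109545447, held 0. Across windows of 300 bases around RefSeq starts, searched on both strands, the motif lay in 11 of 40 windows of members (27.5%) and in 11.6% of windows of all genes. The median number of CpG dinucleotides was 13.5 per window in members and 7 in all genes. A gene with several starts has several windows, some of which overlap, and 28 of the 37 members had one. A match is a description of the letters only.

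Total counts per library lay between 13392941 and 20209760, and 17342 features passed a filter on low counts. The labels call the replicates biological and say nothing of separate cultures, so a p-value covers only the scatter of these libraries, which may be technical. That scatter was small, with a common biological coefficient of variation of 2.47%, and most genes passed the test in each comparison. The lncSmad7 feature had 237 and 221, 140 and 105, and 167 and 207 counts, and Smad7 had a mean of 97.6, 72.5 and 96.6 CPM (counts scaled to a common library size with TMM factors). The feature thus still had counts in the knockout, and which stretch was deleted is not stated. A rise of lncSmad7 in these libraries is not what their label names, and Smad7 only regained its wild-type level, so they are called labelled Smad7-transfected throughout. Genes of the Y chromosome fell in the knockout as well (log2 fold -5.65 for Ddx3y, -4.93 for Uty and -4.32 for Eif2s3y). They were higher in the labelled Smad7-transfected libraries than in the knockout (1.48 for Ddx3y, 1.80 for Uty and 0.86 for Eif2s3y). In both comparisons the effect of the named factor and of whatever else separates the cell populations cannot be told apart.

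Levels of the imprinted genes spanned several orders of magnitude, as the plot of values by library shows. Per kilobase of exon, the most abundant in wild type were Cd81 at 47.2 CPM, Grb10 at 39.4 CPM, Phlda2 at 38.2 CPM, Impact at 32.0 CPM and Snrpn at 28.7 CPM. Mest followed at 20.6 CPM, Rian at 19.4 CPM, Copg2 at 13.3 CPM and Meg3 at 13.1 CPM per kilobase. In total 31 of the 37 passed the filter and 6 did not: Sgce, Usp29, Igf2, Kcnq1, Airn and Peg13. Peg10, H19 and Plagl1 reached 10 counts per library in wild type alone, so by construction they could be found lower in the other groups and hardly higher. In bulk RNA, fewer cells that express a gene and less RNA per cell cannot be told apart.

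**Figure D1:**
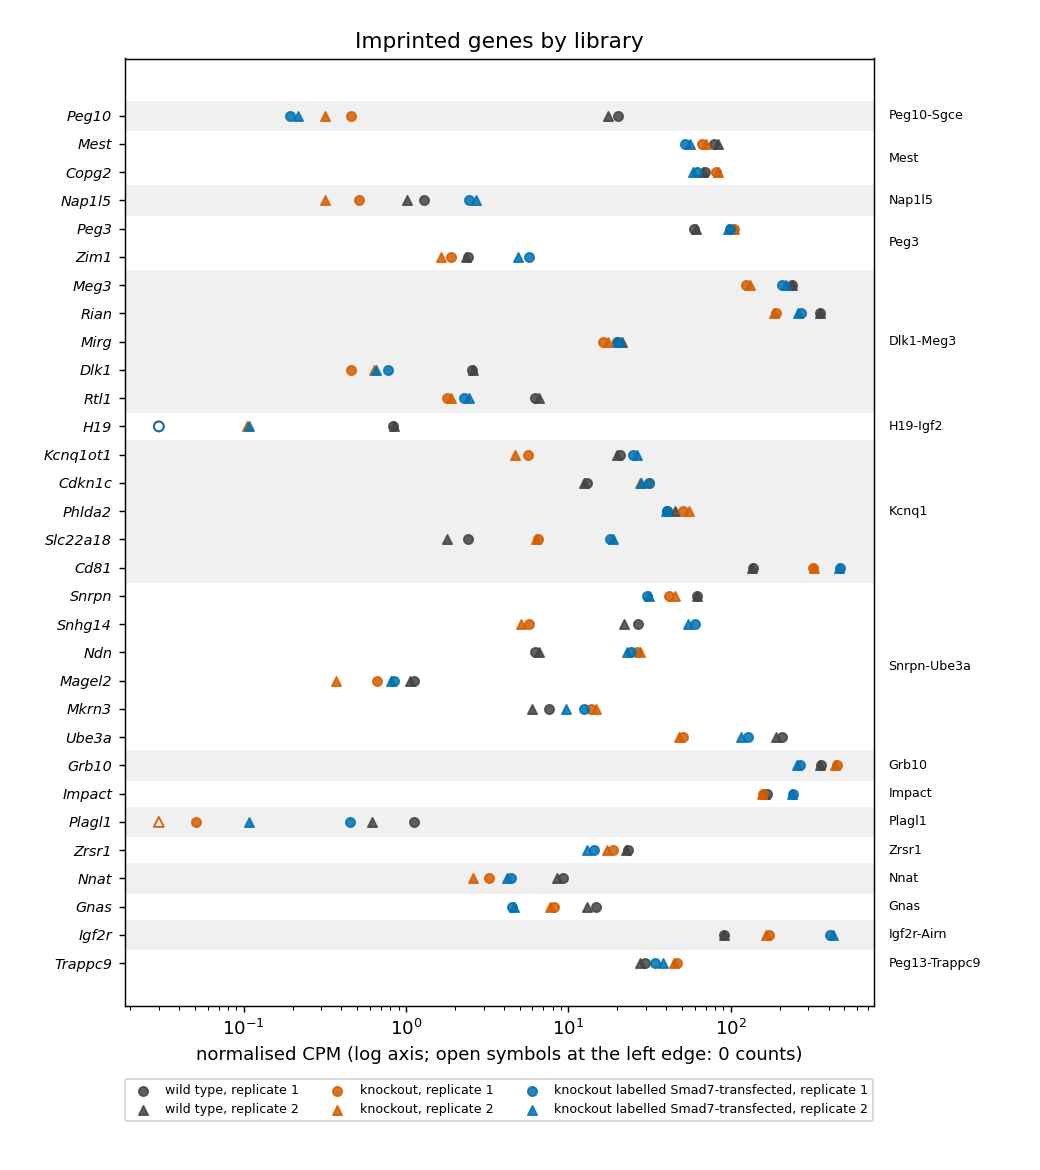
Normalised CPM of the 31 imprinted genes tested (log axis), with each library as a point, circles for replicate 1 and triangles for replicate 2, and open symbols at the left edge for 0 counts. Replicates lay close together for most genes, and wild type stood far to the right of the other libraries for Peg10, at 20.1 and 17.6 CPM against at most 0.459 CPM.

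The first comparison, of the knockout with wild type, asks what differs in imprinted expression between these 2 groups. The lncSmad7 feature was 2.07-fold lower in the knockout, not absent, and genes of the Y chromosome differed too, as given above. In the knockout 11 of the 31 genes tested rose and 18 fell (edgeR's quasi-likelihood test, Benjamini-Hochberg adjusted p under 0.05 over all genes), where 67.7% of all genes were called, 34.5% higher and 33.3% lower. With a log2 fold of at least 1 as a further condition, 5 rose and 11 fell, against 14.2% and 8.74% of all genes (22.9% in all). The 11 include Peg10, H19 and Plagl1, which passed the filter through wild type alone and could hardly be found higher. They also enter the medians below, Peg10 and Plagl1 as paternal genes and H19 as a maternal one. The median log2 fold of the members was -0.44, beside 0.02 for all genes. Paternally expressed genes lay lower than maternally expressed ones: of 16 paternal genes tested 3 rose and 12 fell, with a median of -1.26, and of 14 maternal genes 8 rose and 5 fell, with a median of 0.29. The maternal count includes Trappc9, which rose, and Ube3a, which fell, both listed as maternal for brain or neurons only. Whether the other genes, paternal or maternal, favour the listed allele in these cells was not measured. The sign of both medians was the same under the 4 other scalings and tools (-0.92 to -1.33 and 0.20 to 0.43). The difference between the alleles was not tested, since the genes are neighbours in clusters and not independent.

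Peg10, Plagl1, H19, Dlk1, Snhg14 and Ube3a were the lowest in the knockout relative to wild type, and Ndn, Slc22a18, Cd81, Cdkn1c and Mkrn3 the highest. The plot by parental allele shows that Ndn, Mkrn3 and Peg3 were the paternal genes that rose, and H19, Ube3a, Rian, Meg3 and Mirg the genes listed as maternal that fell.

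**Figure D2:**
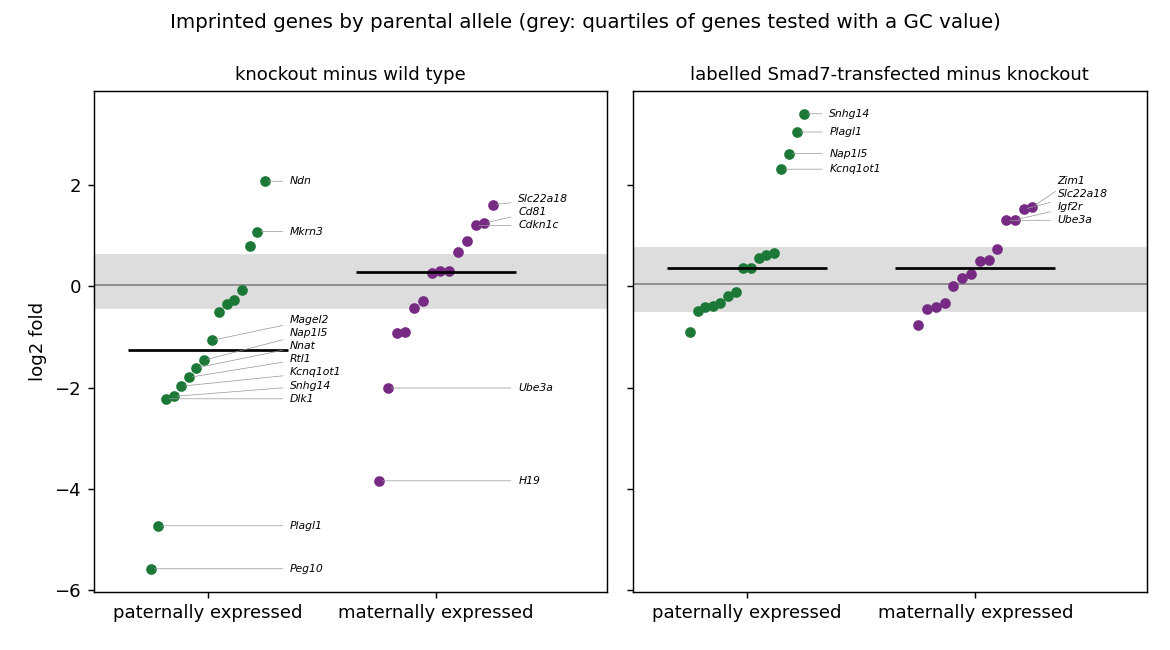
Log2 fold of each imprinted gene tested, split by the allele listed, for the knockout against wild type (left) and the labelled Smad7-transfected libraries against the knockout (right). Black lines mark medians and the grey band the quartiles of the genes tested that have a GC value; in the left panel the paternal median lies below the band and the maternal median within it, while in the right panel both lie within it. Genes are named where the log2 fold is at least 1 in size.

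The second comparison, of the labelled Smad7-transfected libraries with the knockout, asks what changes 24 h after transfection. Of the 31 genes, 14 rose and 11 fell, where 74.6% of all genes were called, 37.8% higher and 36.8% lower. No member fell and 8 rose with a log2 fold of at least 1, beside 6.85% and 18.9% of all genes (25.8% in all): Snhg14, Plagl1, Nap1l5, Kcnq1ot1, Zim1, Slc22a18, Igf2r and Ube3a. Paternal and maternal genes had medians of 0.36 and 0.37, with 6 of 16 and 8 of 14 higher. Scaling by library size alone gave 18 higher and 5 lower in place of 14 and 11. Both comparisons use the knockout libraries, so the 2 values of a gene are given side by side and are not independent. Against wild type directly, 13 members were higher and 15 lower, where 43.1% and 38.8% of all genes were, 81.9% in all. Past a log2 fold of 1 there were 8 members on each side, beside 27.4% and 15.6% of all genes, 43.0% in all. The higher ones were Slc22a18 (3.13), Igf2r (2.21), Ndn (1.88), Cd81 (1.78), Snhg14 (1.24), Cdkn1c (1.21), Nap1l5 (1.17) and Zim1 (1.14). The lower ones were Peg10 (-6.47), H19 (-3.67), Dlk1 (-1.84), Plagl1 (-1.67), Gnas (-1.61), Rtl1 (-1.44), Nnat (-1.05) and Snrpn (-1.01). In this comparison Plagl1 was not called without wild-type replicate 1 (adjusted p = 0.14), without transfected replicate 2 (adjusted p = 0.18) or with DESeq2 (adjusted p = 0.093).

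**Figure D3:**
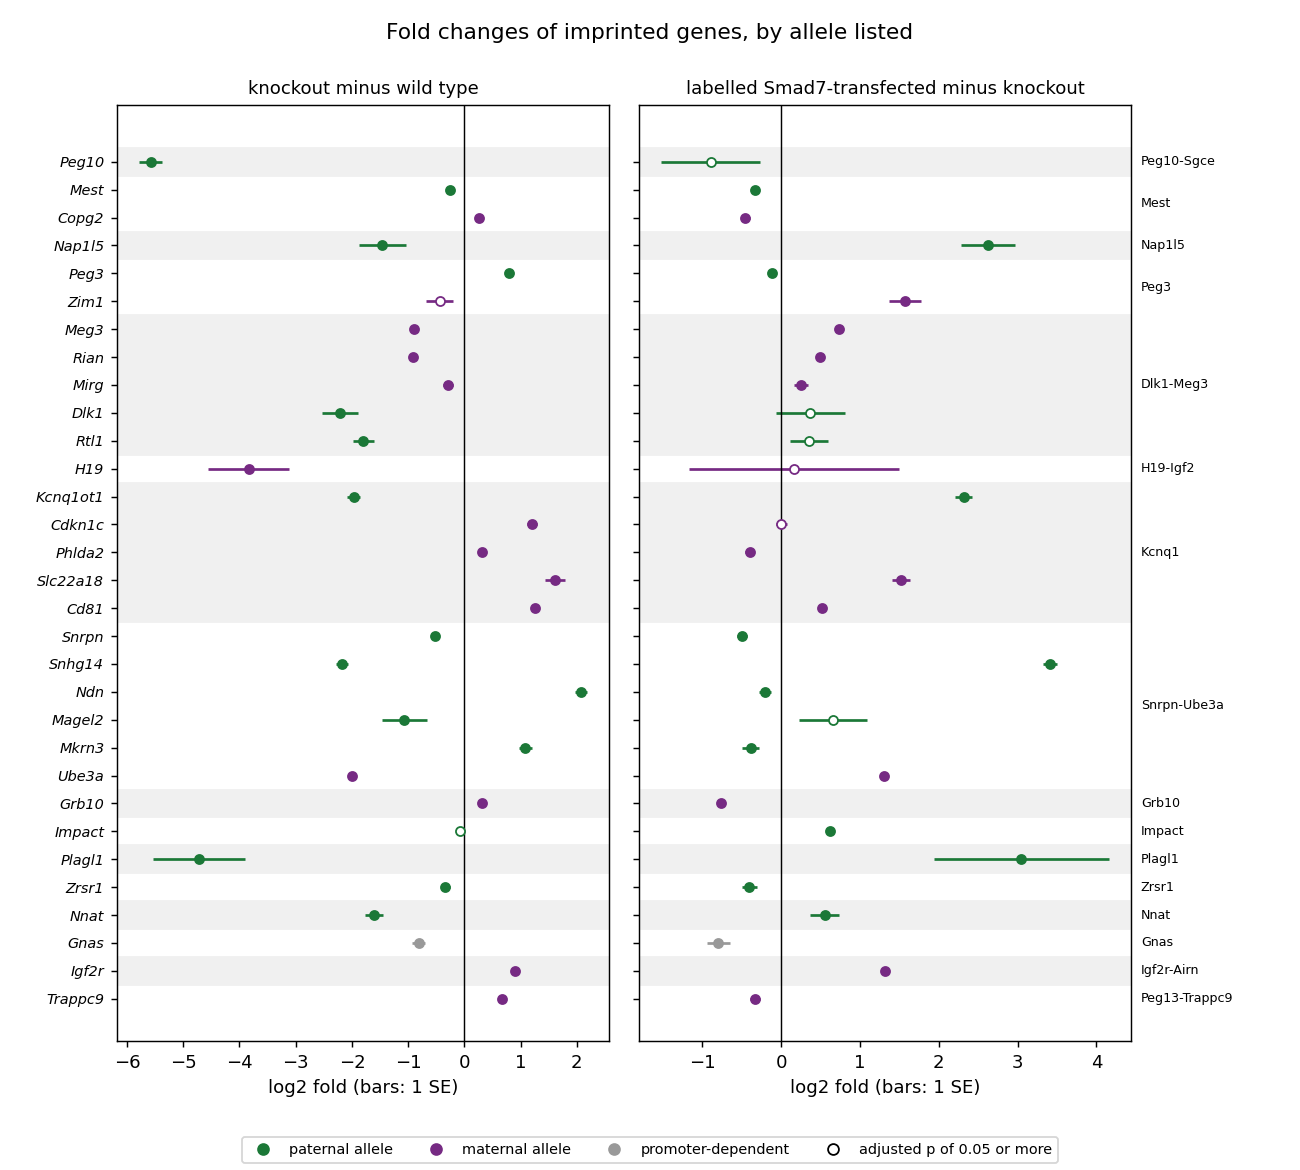
Log2 fold with 1 SE of each imprinted gene tested, in cluster order, coloured by the allele listed, with open circles where the adjusted p was 0.05 or more. In the left panel all 5 genes of the Dlk1-Meg3 cluster lie below 0, and in the Kcnq1 cluster Kcnq1ot1 lies below 0 and the other 4 above.

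All 5 genes of the Dlk1-Meg3 cluster on chromosome 12 fell in the knockout, with the limits given below for Rian and Mirg. Its noncoding RNAs, Meg3, Rian (host of C/D small nucleolar RNAs) and Mirg (host of microRNAs), come from the maternal copy, and Dlk1 (a membrane protein related to Notch ligands) and Rtl1 (a retrotransposon-derived protein of the placenta) from the paternal copy. In GRCm38, Meg3 spans chr12:109541001-109571726 (plus strand), Rian chr12:109603940-109661716 (plus strand), Mirg chr12:109729764-109749460 (plus strand), Dlk1 chr12:109452823-109463336 (plus strand) and Rtl1 chr12:109589193-109600330 (minus strand). Wild-type libraries held Meg3 at 237 and 237 CPM, knockout libraries at 124 and 132 CPM and the labelled Smad7-transfected libraries at 208 and 218 CPM. Its fall was 1.86-fold (log2 fold change -0.89, SE 0.039, adjusted p = 2.7e-48), its later rise 1.67-fold (log2 fold change 0.74, SE 0.040, adjusted p = 4.7e-39), and no group overlapped another. Such separation of libraries, given here and below, is a description and does not set these genes apart. The share of all genes that show it is not given, and 67.7% and 74.6% of all genes were called in the 2 comparisons. Rian, at 354 and 354, 190 and 184 and 271 and 258 CPM, fell (log2 fold change -0.92, SE 0.037, adjusted p = 4.4e-52) and then rose (log2 fold change 0.49, SE 0.038, adjusted p = 3.3e-25). Offsets for GC content and transcript length took the first of these to -0.05 (adjusted p = 0.17) and the second to -0.90. Mirg moved least of the 3, from 19.8 and 21.4 CPM to 16.3 and 17.5 and 20.1 and 20.1 CPM (log2 fold change -0.29, SE 0.086, adjusted p = 0.0019, then log2 fold change 0.25, SE 0.087, adjusted p = 0.0069). The fall of Mirg did not pass without wild-type replicate 2 (adjusted p = 0.053) or with library size scaling (adjusted p = 0.13), and its rise not without knockout replicate 1 (adjusted p = 0.13) or with DESeq2 (adjusted p = 0.078).

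The paternal genes of this cluster fell further. Dlk1 was measured at 2.54 and 2.57 CPM, 0.459 and 0.631 CPM and 0.774 and 0.649 CPM, a 4.65-fold fall in the knockout (log2 fold change -2.22, SE 0.32, adjusted p = 3.8e-10). Rtl1, at 6.19 and 6.60 CPM, 1.78 and 1.89 CPM and 2.26 and 2.43 CPM, fell 3.47-fold (log2 fold change -1.80, SE 0.19, adjusted p = 2.1e-16). In both, every wild-type library lay above every other library. Neither change after transfection passed the test (log2 fold change 0.37, SE 0.44, adjusted p = 0.44 for Dlk1, and log2 fold change 0.36, SE 0.24, adjusted p = 0.17 for Rtl1). Rtl1 lies antisense to microRNA precursors of the maternal strand, and the strand setting of the counting is not stated.

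In the Kcnq1 cluster on chromosome 7, the noncoding RNA Kcnq1ot1 fell in the knockout while 4 protein-coding members rose. Of 10 other genes tested within 250 kb of its members, 6 were higher and 2 lower, beside 34.5% and 33.3% of all genes. The higher ones were Tspan32 (2.84, from 3 and 5 counts in wild type), Tspan32os (1.72), Osbpl5 (0.94), Ascl2 (0.85), Cars (0.66) and Tnfrsf22 (0.20). Tssc4 (-0.19) and Nap1l4 (-0.14) fell by small amounts. With library size scaling neither of these 2 falls was called and Nap1l4 stood at 0.01. All these genes are named here after their values were seen. Kcnq1ot1 is a long RNA transcribed from the paternal copy within Kcnq1, and it silences the protein-coding genes of the cluster on that copy. In GRCm38 it spans chr7:143203458-143296549 (minus strand), inside Kcnq1 at chr7:143106362-143427042 (plus strand). Wild-type libraries had 20.8 and 19.8 CPM, knockout libraries 5.66 and 4.68 CPM and the labelled Smad7-transfected libraries 25.1 and 26.4 CPM. The fall was 3.92-fold (log2 fold change -1.97, SE 0.11, adjusted p = 1.3e-36) and the later rise 4.98-fold (log2 fold change 2.31, SE 0.11, adjusted p = 6.0e-46), with the knockout libraries below all others. With offsets for GC content and length the log2 folds kept their signs at -0.67 and 1.22.

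Of the maternal genes in this cluster, 4 of 4 tested rose in the knockout: Cdkn1c at chr7:143458339-143461050 (minus strand), Phlda2 at chr7:143501545-143503150 (minus strand), Slc22a18 at chr7:143473736-143499334 (plus strand) and Cd81 at chr7:143052739-143067934 (plus strand). Cdkn1c, an inhibitor of cyclin-dependent kinases, went from 12.98 and 12.5 CPM to 31.1 and 27.6 CPM (log2 fold change 1.21, SE 0.086, adjusted p = 1.6e-27). It stood at 31.2 and 28.0 CPM after transfection, with no call (log2 fold change 0.00, SE 0.073, adjusted p = 0.96). Phlda2, which restrains growth of the placenta, moved from 40.5 and 45.0 CPM to 50.6 and 55.4 CPM and back to 40.6 and 39.8 CPM (log2 fold change 0.31, SE 0.059, adjusted p = 1.9e-06, then log2 fold change -0.40, SE 0.060, adjusted p = 2.1e-09), and the return was no longer called with GC and length offsets (-0.04, adjusted p = 0.54). Slc22a18, a membrane transporter, and Cd81, a tetraspanin at the edge of the cluster, rose at both steps. Slc22a18 stood at 2.42 and 1.79 CPM, 6.52 and 6.31 CPM and 18.1 and 18.8 CPM (log2 fold change 1.61, SE 0.18, adjusted p = 1.2e-14, then log2 fold change 1.52, SE 0.11, adjusted p = 8.4e-27), 8.77-fold above wild type at the end. Cd81 stood at 138 and 134 CPM, 321 and 326 CPM and 468 and 464 CPM (log2 fold change 1.25, SE 0.039, adjusted p = 2.8e-66, then log2 fold change 0.52, SE 0.036, adjusted p = 8.5e-30), and its 3 groups did not overlap. Kcnq1, the potassium channel gene, had 5, 5 and 14 counts summed over the 2 libraries of each group and was too low to test. Its ratio after transfection to the knockout was 3.18, with a counting interval from 1.08 to 11.3.

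Paternal genes of the Snrpn-Ube3a cluster, the region affected in Prader-Willi and Angelman syndromes, split into genes that fell and genes that rose. Snrpn encodes a protein of the spliceosome, and Snhg14 is a long RNA that hosts small nucleolar RNAs and runs antisense into Ube3a. Snrpn is annotated at chr7:59982495-60140219 (minus strand), Snhg14 at chr7:59307924-59975759 (minus strand) and Ube3a at chr7:59228750-59311536 (plus strand). Snrpn stood at 61.9 and 61.8 CPM, 41.5 and 45.3 CPM and 30.3 and 31.3 CPM and fell at both steps (log2 fold change -0.51, SE 0.057, adjusted p = 4.5e-15, then log2 fold change -0.49, SE 0.065, adjusted p = 1.0e-11). Snhg14 stood at 26.9 and 21.9 CPM, 5.71 and 5.10 CPM and 60.5 and 54.8 CPM. Its fall was 4.50-fold (log2 fold change -2.17, SE 0.11, adjusted p = 3.6e-38) and its later rise 10.6-fold (log2 fold change 3.41, SE 0.093, adjusted p = 3.1e-64), past its level in wild type. Snrpn and Snhg14 thus moved in opposite directions in the transfected libraries, and both have the RefSeq start printed above, which lies upstream of the GENCODE span of Snrpn. GC and length offsets gave -1.18 and 1.54 for Snhg14.

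Ube3a, a ubiquitin ligase that is expressed from both copies outside neurons, fell in the knockout and was higher again after transfection, as Snhg14 was, but against wild type it ended lower (-0.70) and Snhg14 higher (1.24). Its levels were 205 and 190 CPM, 50.6 and 47.7 CPM and 127 and 116 CPM, with no overlap between the groups (log2 fold change -2.00, SE 0.047, adjusted p = 1.1e-72, then log2 fold change 1.30, SE 0.050, adjusted p = 2.2e-50). With GC and length offsets the fall was -1.19 and the rise was gone (-0.01, adjusted p = 0.79). The annotated genes share 3613 bases on opposite strands, and since the strand setting is not given, reads of one may be counted for the other.

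Ndn and Magel2 encode proteins of the MAGE family, and Mkrn3 a ring-finger protein that restrains puberty. Ndn lies at chr7:62346569-62350262 (plus strand), Magel2 at chr7:62377010-62381640 (plus strand) and Mkrn3 at chr7:62417593-62420139 (minus strand). Ndn went from 6.19 and 6.60 CPM to 26.4 and 27.6 CPM in the knockout, a 4.22-fold rise (log2 fold change 2.08, SE 0.10, adjusted p = 1.8e-43), and stood at 24.3 and 22.9 CPM after transfection (log2 fold change -0.20, SE 0.077, adjusted p = 0.016). Mkrn3 went from 7.61 and 5.93 CPM to 13.8 and 14.8 CPM (log2 fold change 1.08, SE 0.12, adjusted p = 6.4e-15) and stood at 12.4 and 9.68 CPM (log2 fold change -0.38, SE 0.11, adjusted p = 0.00089). In both genes the wild-type libraries were below all others. The small falls after transfection were not called with DESeq2 (adjusted p = 0.19 for Ndn and 0.071 for Mkrn3), without transfected replicate 2 (0.14 and 0.165) or with library size scaling (log2 folds 0.05 and -0.14). For Ndn the call was also lost without knockout replicate 2 (adjusted p = 0.068) and with a filter of 1 CPM (adjusted p = 0.25). Magel2, at 1.12 and 1.06 CPM, 0.663 and 0.368 CPM and 0.839 and 0.811 CPM, fell (log2 fold change -1.06, SE 0.40, adjusted p = 0.014) where its neighbour Ndn rose. That call was lost without wild-type replicate 1 (adjusted p = 0.065), without knockout replicate 2 (adjusted p = 0.20) and with DESeq2 (adjusted p = 0.12).

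Peg10 had the lowest fold of all members. It encodes a retrotransposon-derived protein needed for the placenta, and shares a start region on chromosome 6 with Sgce, which encodes a sarcoglycan and is read the other way from a start 98 bases off. Peg10 spans chr6:4747306-4760517 (plus strand) and Sgce chr6:4674350-4747207 (minus strand). Wild-type libraries held 341 and 314 Peg10 counts, knockout libraries 9 and 6, and the labelled Smad7-transfected libraries 3 and 4. Its fall was 47.6-fold (log2 fold change -5.57, SE 0.21, adjusted p = 2.4e-57) and after transfection it was 88.4-fold below wild type (log2 fold change -6.46, SE 0.24, adjusted p = 3.3e-57). Sgce, with 15, 7 and 7 counts per group, was too low to test, and its wild-type level was 2.38 times that of the knockout with a counting interval from 0.912 to 6.89.

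The H19-Igf2 cluster had few counts in any group. H19 lies at chr7:142575529-142578143 (minus strand) and Igf2 at chr7:142650766-142666816 (minus strand). H19, a long noncoding RNA of the maternal copy, had 29 counts over both wild-type libraries and 2 counts over both libraries of each other group, with 0 in replicate 1 of each. Wild type was 16.1 times the knockout, with a 95% interval from 4.07 to 139 that covers counting error only (log2 fold change -3.84, SE 0.73, adjusted p = 1.1e-06). Without knockout replicate 1 the log2 fold was -2.90 and without replicate 2 it was -6.89. Igf2, the growth factor expressed from the paternal copy, had 12, 2 and 7 counts and was too low to test. Its ratio of wild type to knockout was 6.65, with an interval from 1.48 to 61.2. Both genes of the pair were thus low in the knockout libraries.

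Plagl1, a zinc-finger transcription factor gene at chr10:13060504-13131694 (plus strand), also had few counts. It had 30 counts in wild type, 1 in the knockout and 9 after transfection, so wild type was 33.3 times the knockout (interval 5.53 to 1357). The fall passed the test (log2 fold change -4.72, SE 0.82, adjusted p = 1.5e-07), with log2 folds of -6.94 and -3.89 without knockout replicate 1 and 2. The rise after transfection (log2 fold change 3.05, SE 1.10, adjusted p = 0.0098) was lost without knockout replicate 2 (adjusted p = 0.12), without transfected replicate 1 (adjusted p = 0.33) and with DESeq2 (adjusted p = 0.072).

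Igf2r, the receptor that carries Igf2 to lysosomes for breakdown, rose at both steps. It spans chr17:12682406-12769664 (minus strand), and Airn chr17:12741311-12860136 (plus strand). It stood at 91.1 and 90.3 CPM, 172 and 165 CPM and 410 and 426 CPM, 4.61-fold above wild type at the end, and the groups did not overlap (log2 fold change 0.89, SE 0.043, adjusted p = 1.1e-44, then log2 fold change 1.31, SE 0.037, adjusted p = 5.3e-71). Airn, the paternal noncoding RNA that silences Igf2r on its copy, had 11 counts in wild type, 0 in the knockout and 1 after transfection. It was too low to test. Taking 3 counts over the 2 knockout libraries as a floor, it would be 4.07-fold lower there, a value that leaves out the counting error of the 11 counts in wild type. The pair share 28354 bases on opposite strands.

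Mest and Copg2 are neighbours on chromosome 6 that overlap by 912 bases at their ends, Mest at chr6:30723547-30748465 (plus strand) and Copg2 at chr6:30747554-30896794 (minus strand). Mest, a paternal gene for a hydrolase-like protein of the mesoderm, fell at both steps, from 79.3 and 83.4 CPM to 66.1 and 70.0 CPM and 52.5 and 55.7 CPM (log2 fold change -0.26, SE 0.050, adjusted p = 1.9e-06, then log2 fold change -0.33, SE 0.054, adjusted p = 2.0e-08), and the second fall was not called with library size scaling (-0.08, adjusted p = 0.17). Copg2, a maternal gene for a subunit of the COPI coat, rose from 69.01 and 67.3 CPM to 80.7 and 83.3 CPM (log2 fold change 0.27, SE 0.050, adjusted p = 8.2e-07) and fell to 62.0 and 58.2 CPM (log2 fold change -0.45, SE 0.051, adjusted p = 1.1e-14). All of these changes were under 1.5-fold. Nap1l5, a paternal gene without introns that lies inside Herc3 at chr6:58905233-58907076 (minus strand), went from 1.30 and 1.006 CPM to 0.510 and 0.316 CPM (log2 fold change -1.46, SE 0.41, adjusted p = 0.0010) and then to 2.45 and 2.70 CPM, a 6.16-fold rise (log2 fold change 2.62, SE 0.34, adjusted p = 6.0e-12). Its knockout libraries lay below all others.

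In the Peg3 cluster on chromosome 7, Peg3 itself, a paternal zinc-finger gene, rose 1.74-fold in the knockout from 59.4 and 61.0 CPM to 105 and 105 CPM (log2 fold change 0.80, SE 0.048, adjusted p = 2.8e-34). It stood at 98.3 and 95.5 CPM after transfection (log2 fold change -0.11, SE 0.045, adjusted p = 0.018), a fall that was not called with DESeq2 (adjusted p = 0.15), without transfected replicate 2 (adjusted p = 0.11) or with a filter of 1 CPM (adjusted p = 0.82), and that library size scaling turned to 0.13. Usp29, a ubiquitin protease gene read the other way from the shared start, had 7, 15 and 22 counts and was too low to test. Its ratio of the labelled Smad7-transfected libraries to wild type was 3.22, with a counting interval from 1.33 to 8.93. Zim1, a maternal zinc-finger gene downstream of Peg3, stood at 2.42 and 2.35 CPM and 1.89 and 1.63 CPM (log2 fold change -0.44, SE 0.24, adjusted p = 0.10) and rose 2.97-fold to 5.68 and 4.87 CPM (log2 fold change 1.57, SE 0.20, adjusted p = 3.4e-12). The increase of Zim1 kept its transfected libraries above the 4 others. Peg3 spans chr7:6703892-6730431 (minus strand), Usp29 chr7:6730578-6967219 (plus strand) and Zim1 chr7:6671269-6696450 (minus strand).

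The remaining clusters gave 1 tested gene each. Grb10, an adaptor that restrains insulin and IGF signalling, was the most abundant of them per kilobase in wild type, at 361 and 355 CPM, 451 and 438 CPM and 268 and 256 CPM, a small rise and then a fall (log2 fold change 0.31, SE 0.036, adjusted p = 3.3e-14, then log2 fold change -0.76, SE 0.037, adjusted p = 3.6e-44). Trappc9, a subunit of a vesicle tethering complex, stood at 29.6 and 27.6 CPM, 46.9 and 44.4 CPM and 34.1 and 38.2 CPM, also with a rise and a fall (log2 fold change 0.68, SE 0.066, adjusted p = 3.8e-18, then log2 fold change -0.33, SE 0.064, adjusted p = 1.2e-06). With library size scaling the fall of Trappc9 was -0.08 (adjusted p = 0.22). Its intronic noncoding neighbour Peg13 had 1, 0 and 7 counts and was too low to test. Of the 7 counts after transfection, 6 lay in replicate 2. Set against a floor of 3 counts in the knockout, the 7 counts would be 2.65-fold higher, a value that leaves out their own counting error. Impact, a regulator of translation under stress, did not pass in the knockout (log2 fold change -0.07, SE 0.039, adjusted p = 0.094) and rose in the transfected libraries from 157 and 155 to 241 and 238 CPM (log2 fold change 0.62, SE 0.038, adjusted p = 2.7e-33). RLE scaling (-0.13, adjusted p = 0.0029) and DESeq2 (adjusted p = 0.024) called Impact lower in the knockout, and GC and length offsets put it at 0.20.

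Gnas, whose several promoters differ in the allele they use, fell at both steps, from 14.8 and 13.03 CPM to 8.16 and 7.68 CPM and 4.52 and 4.60 CPM (log2 fold change -0.81, SE 0.11, adjusted p = 1.2e-10, then log2 fold change -0.80, SE 0.15, adjusted p = 4.7e-07). Zrsr1, a paternal splicing factor gene inside Commd1, also fell at both steps, from 23.2 and 22.5 CPM to 18.9 and 17.2 CPM and 14.4 and 13.03 CPM (log2 fold change -0.34, SE 0.084, adjusted p = 0.00018, then log2 fold change -0.40, SE 0.094, adjusted p = 6.3e-05). For Zrsr1 the second fall was not called with library size scaling (-0.15, adjusted p = 0.13). Nnat, a paternal gene for a small membrane protein that lies inside Blcap, fell from 9.32 and 8.55 CPM to 3.26 and 2.58 CPM (log2 fold change -1.61, SE 0.16, adjusted p = 3.9e-18) and was higher again at 4.45 and 4.17 CPM (log2 fold change 0.55, SE 0.19, adjusted p = 0.0054). The rise of Nnat was lost without knockout replicate 2 (adjusted p = 0.13) and with DESeq2 (adjusted p = 0.056). In each of these 3 genes the wild-type libraries were the highest. Gnas spans chr2:174284320-174346744 (plus strand), Zrsr1 chr11:22972005-22976496 (plus strand), Nnat chr2:157560078-157562522 (plus strand), Grb10 chr11:11930508-12038683 (minus strand), Trappc9 chr15:72589620-73061204 (minus strand) and Peg13 chr15:72805600-72810324 (minus strand).

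Several of the largest swings were in long RNAs of low GC content. Rian, Snhg14 and Ube3a belong to 275 genes with a GC content under 40% and a longest transcript over 5000 bases, limits chosen after seeing the data. Of these 275 genes 73.8% were lower in the knockout (median log2 fold -0.86) and 87.3% higher after transfection (median 1.19), beside 33.4% and 37.9% of all genes with values. Kcnq1ot1, at 40.3% GC, lay just outside that set. Across 16969 genes the rank correlation of GC content with the log2 fold was 0.26 in the first comparison and -0.21 in the second, as a description over genes that share the same libraries. With offsets that remove this trend Kcnq1ot1 and Snhg14 remained called in both comparisons, Ube3a in the first, and Rian had no fall in the first. Whether GC content and length set these swings beyond the offsets was not tested. With the same offsets the first comparison gave -5.68 for Peg10, -4.79 for Plagl1, -4.05 for H19, -2.47 for Dlk1, -2.07 for Rtl1, 2.14 for Ndn, 1.46 for Slc22a18 and 0.68 for Igf2r.

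**Figure D4:**
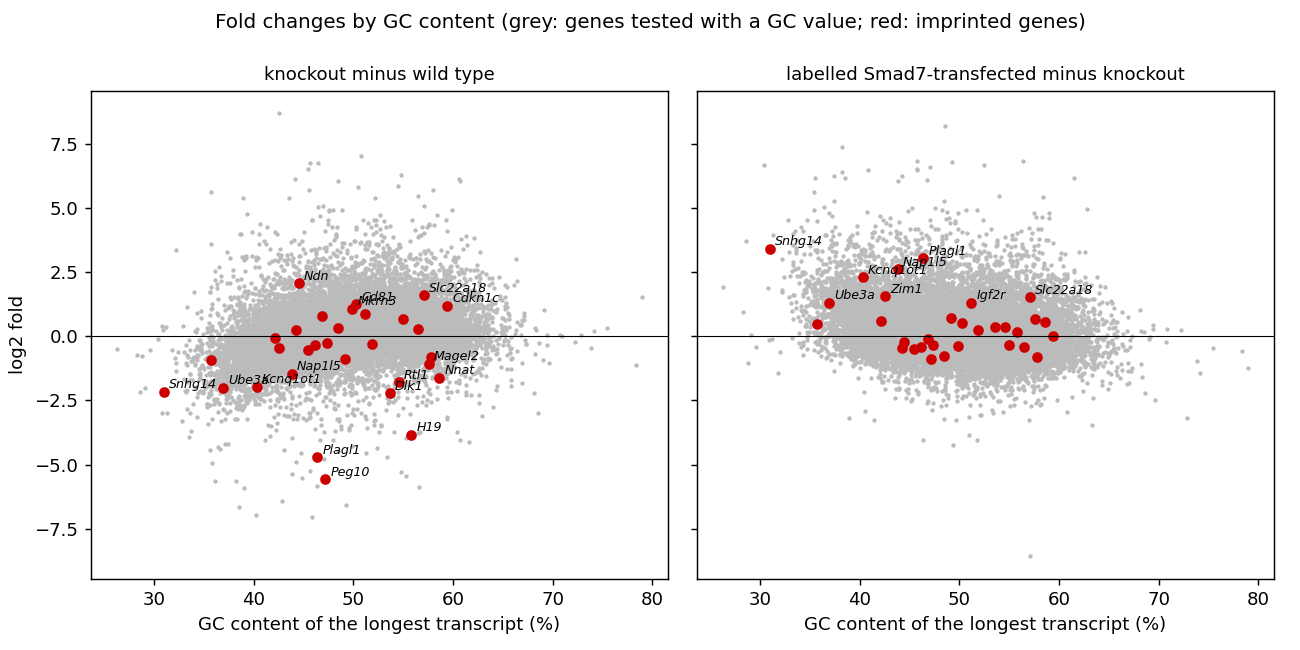
Log2 fold against the GC content of the longest annotated transcript, with genes tested that have a GC value in grey and imprinted genes in red, named where the log2 fold is at least 1 in size. Snhg14, Ube3a and Kcnq1ot1, at 31.0%, 36.9% and 40.3% GC, lie low in the left panel and high in the right one, in the direction of the grey points of low GC content, while Peg10 and H19 lie low at a GC content near the middle of the range or above it.

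**Figure D5:**
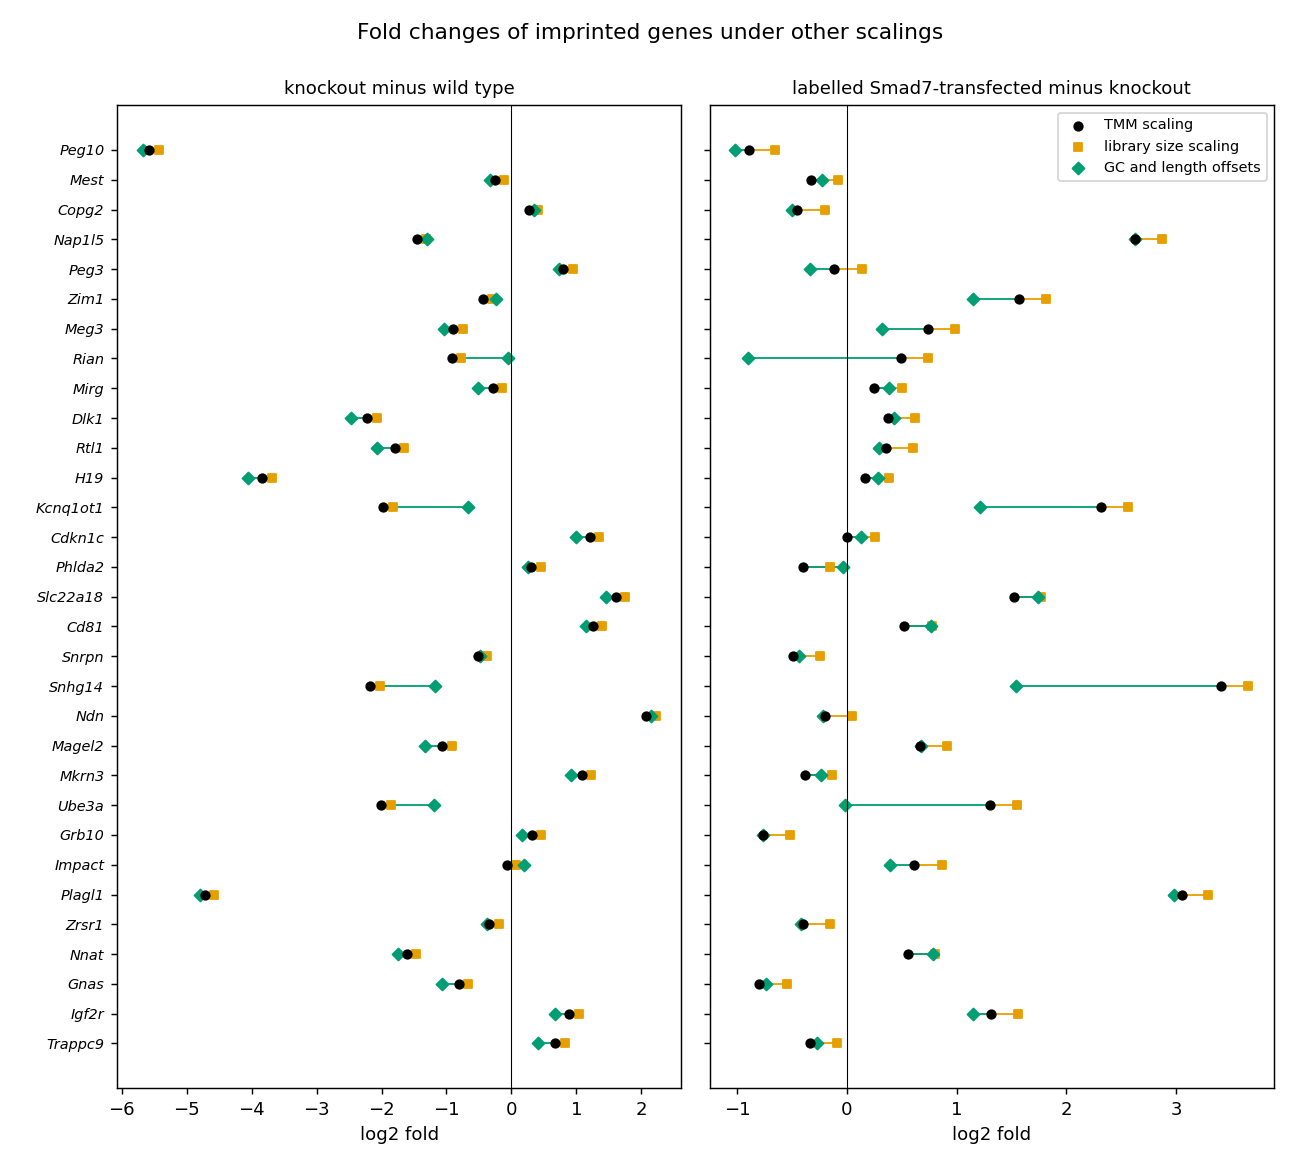
Log2 fold of each imprinted gene tested with TMM scaling (black), with library size alone (orange squares) and with offsets for GC content and length (green diamonds). Library size shifts all genes to the right by the same amount, and the offsets move Rian, Kcnq1ot1, Snhg14 and Ube3a the most.

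Markers of another cell type also fell in the knockout, where 34.5% of all genes were called higher and 33.3% lower (37.8% and 36.8% after transfection). Of 12 markers of primitive and visceral endoderm, 11 were tested and all 11 fell in the knockout (median log2 fold -3.10), with Cubn at -5.86, Gata6 at -5.46, Dab2 at -5.26, Sox17 at -3.72, Pdgfra at -3.69, Amn at -3.10, Foxa2 at -2.32, Col4a1 at -2.25, Sox7 at -1.76 and Gata4 at -1.15. Their summed level was 415 to 425 CPM in wild type, 146 to 153 CPM in the knockout and 180 to 187 CPM in the labelled Smad7-transfected libraries, where 6 rose and 1 fell against the knockout, with Gata6 at 2.84, Amn at 1.79, Pdgfra at 1.63 and Col4a1 at 1.32. Afp was at 0 in wild type. Markers of embryonic stem cells summed to 4850 to 4926 CPM, 6580 to 6676 CPM and 4370 to 4385 CPM, with 7 of 8 higher and 1 lower in the knockout. Trophectoderm markers summed to at most 52.7 CPM in any library, fibroblast and feeder markers to at most 8.82 CPM, mesoderm markers to at most 4.47 CPM, 2-cell markers to at most 0.316 CPM and neuroectoderm markers to 165 to 187 CPM. In the knockout, 1 of 6 tested trophectoderm markers rose (Tfap2c, 2.03) and 2 fell (Krt8, -1.70, and Krt18, -2.69), 1 of 2 fibroblast markers rose, 2 of 5 neuroectoderm markers rose (Map2 at 1.34) and 2 fell, 1 of 4 mesoderm markers rose and 2 fell (T at -3.26 and Kdr at -1.31), and no 2-cell marker was tested. The part of these cells in the levels of Peg10, H19, Plagl1, Dlk1 or any other imprinted gene was not tested.

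Among genes that maintain imprints or methylate DNA, 3 of 20 rose and 15 fell in the knockout, beside 34.5% and 33.3% of all genes. Library size scaling gave 4 and 14. Trim28 (-0.47) and Zfp57 (-0.19) fell slightly, and Zfp445, named here after its values were seen, fell by 0.86 and rose by 0.51 after transfection. Also lower in the knockout were Dppa3, an oocyte and early embryo factor (-2.21), and the methyltransferase Dnmt3a (-2.38). The chromatin remodeller Hells fell by 1.84 and Arid4b, a chromatin factor linked to imprinting, by 1.68. Dnmt3b (-0.66), Dnmt3l (-0.70), Tet1 (-0.49) and Tet2 (-0.50) fell too, while Uhrf1 (0.40) and Dnmt1 (0.25, but -0.02 with GC and length offsets) were higher. After transfection 6 rose and 11 fell, beside 37.8% and 36.8% of all genes, or 8 and 10 with library size scaling. Among those lower were Trim28 at -1.43, Dnmt3b at -1.67, Zfp57 at -0.35, Dnmt1 at -0.46, Uhrf1 at -0.34, Dnmt3a at -0.53 and Dnmt3l at -0.53. Among those higher were Arid4b at 1.65 and Tet2 at 0.41. Tet1 (-0.02, adjusted p = 0.61) and Dppa3 (-1.04, adjusted p = 0.10) did not pass, and Hells was 0.71 or, with GC and length offsets, -0.32. Against wild type, Trim28 stood at -1.90 on the log2 scale after transfection.

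A further list of 38 imprinted genes outside the members had 25 that could be tested. In the knockout 7 rose and 13 fell, beside 34.5% and 33.3% of all genes, with a median of -0.13. Library size scaling gave 9 and 10, with a median of 0.01. Its largest rises were those of Peg12 (4.03), a neighbour of Ndn and Magel2, and Zfp264 (3.75), which lies near Peg3, and Atp10a (1.47), Sfmbt2 (1.25) and Qpct (1.08) rose as well. Zdbf2 (-2.13), Calcr (-1.30) and H13 (-1.17) fell. After transfection 8 rose and 11 fell, beside 37.8% and 36.8% of all genes, or 13 and 9 with library size scaling. Xist (3.04), Klf14 (2.11), Qpct (2.08), Zdbf2 (1.91), Calcr (1.76), Osbpl5 (1.498) and Ascl2 (1.45) were higher. Peg12 (-3.27), Sfmbt2 (-1.22), Atp10a (-1.22) and Commd1 (-1.18) were lower. Klf14, with 0 and 2, 2 and 2, and 7 and 9 counts, passed the filter through the transfected libraries alone. By construction it could hardly be found lower there. Peg12, with 8 and 4, 113 and 108, and 13 and 7 counts, passed the filter through the knockout libraries alone. Its rise in the knockout and its fall after transfection could hardly have been found the other way. Of the paternal genes in this stretch of chromosome 7, Ndn and Mkrn3 were higher in the knockout, as was Peg12 with that limit. Magel2 between them was lower, a call lost under the settings given above.

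Genes within 250 kb of a member but outside the list were counted to see whether whole neighbourhoods moved. Of 88 tested, 24 were higher and 32 lower in the knockout, with a median of -0.05, beside 34.5% and 33.3% of all genes. After transfection 31 were higher and 34 lower, with a median of -0.01, beside 37.8% and 36.8% of all genes. Of those with a mean of at least 5 CPM over all 6 libraries, Phactr2 beside Plagl1 passed a log2 fold of 1 in the knockout, and it rose (2.57) where Plagl1 fell. Peg12 and Zfp264, which are among these neighbours, rose further from a lower mean. After transfection Phactr2 (1.07) and Fam161a (1.33) rose past that size, and Commd1, Mrpl18 (-1.12), Sod2 (-1.09), Tcp1 (-1.06) and Ltv1 (-1.01) fell past it. Mrpl18, Sod2 and Tcp1 lie near Igf2r, which rose.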

How the data were processed

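RNA was measured in mouse embryonic stem cells by poly(A)-selected sequencing, in 8 labelled samples of 4 groups. The authors deposited 1 table of raw read counts per gene. The submitters' processing notes name STAR, featureCounts 1.6.3 and, as builds, mm10 and GRCm38, without saying what each was used for. Neither the annotation release nor the strand setting is given in the sources. The names of 2 columns fitted no labelled sample, and these columns were left out, so the lncSmad7-transfected group is not analysed here, and a fit planned over all samples ran on 6 libraries with 3 residual degrees of freedom. No row of totals was used as a gene.

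Counts were filtered with filterByExpr (minimum count 10), scaled with TMM and tested with edgeR 4.0.16 (glmQLFit and glmQLFTest, R 4.3.3), with Benjamini-Hochberg adjustment over 17342 genes and a threshold of 0.05. The script was tested on simulated data. Chi-square per degree of freedom between replicates was 1.57 to 1.89, so no library was a copy of another. CPM are counts per library size after TMM. Exon lengths, GC content and positions came from GENCODE mouse release 21 (GRCm38), matched by symbol. Ratios for genes too low to test carry exact 95% intervals of counting error only. The imprinted genes, the further imprinted genes, the imprint maintenance genes and the marker lists were chosen with earlier results of these data known. All imprinted genes of the list are named; of the other lists, those past the threshold with a log2 fold of at least 1, and a fixed set of maintenance genes; of neighbours, those past both with at least 5 CPM. Alternatives were RLE and library size scaling, other filters on low counts, a replicate block, glmTreat against 1.5-fold, a minimum log2 fold of 1, GC and length offsets (a mgcv 1.9.3 smooth), only the 4 libraries compared, leaving out each library, and DESeq2 1.42.0.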

Additional observations from a re-analysis of the deposited data

How the results depend on the processing

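Most calls of the imprinted genes kept their direction and side of the threshold. Stricter rules lowered the counts: against a 1.5-fold change (glmTreat) 4749, 6004 and 9203 genes were called in the knockout against wild type, the labelled Smad7-transfected libraries against the knockout, and those against wild type, with 20, 10 and 19 imprinted genes, and with a minimum log2 fold of 1 there were 3976, 4467 and 7457 genes with 16, 8 and 16 imprinted genes, in place of 11747, 12945 and 14198 genes with 29, 25 and 28. Library size scaling moved the median of all genes to 0.17, 0.29 and 0.48 and the share of higher calls from 50.9%, 50.7% and 52.6% to 61.8%, 65.7% and 68.3%; the imprinted genes then split 11 to 17, 18 to 5 and 17 to 11. It reversed Peg3 (0.13) and Ndn (0.0497) after transfection, and Copg2 (0.21), Phlda2 (0.30), Meg3 (0.24) and Mirg (0.35) against wild type. GC and length offsets reversed Impact in the knockout (0.20), Ube3a (-0.0140) and Rian (-0.90) after transfection and Phlda2 against wild type (0.21). The cause was not tested. With 1 library left out, 28 to 29, 22 to 25 and 27 to 29 imprinted genes were called; an arm of 1 library is then assumed to vary like the others. DESeq2 called 29, 19 and 27. The replicate block gave 29, 25 and 28 imprinted genes and 11822, 12982 and 14219 genes; correlations of same-numbered libraries were 0.00567, 0.00527 and 0.026, so the numbers do not pair them. Genes with few counts, such as H19 and Plagl1, are limited by depth, as are the 6 genes too low to test.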

Other observations

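In the labelled Smad7-transfected libraries against wild type, genes of the further lists with a log2 fold of at least 1 were as follows. Of the other imprinted genes, 7 of 25 were higher and 11 lower, beside 43.1% and 38.8% of all genes. Library size scaling gave 14 and 8. Zfp264 (3.51), Qpct (3.15), Klf14 (2.89, with the limit given above), Osbpl5 (2.44), Ascl2 (2.30) and Xist (2.29) were higher. Commd1 (-1.65), Slc38a4 (-1.57), H13 (-1.08) and Gab1 (-1.04) were lower. Of the imprint maintenance genes, 1 of 20 was higher and 17 lower, beside 43.1% and 38.8% of all genes. Library size scaling gave 6 and 12. Tet3 (1.04) was higher, and Dppa3 (-3.25), Dnmt3a (-2.90), Dnmt3b (-2.32), Trim28 (-1.90), Dnmt3l (-1.23), Ctcf (-1.14) and Hells (-1.12) were lower.

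Of the 88 neighbours of imprinted genes, 33 were higher and 33 lower against wild type, beside 43.1% and 38.8% of all genes. Phactr2 (3.64), Fam161a (2.15), Ctsd (1.91), Osbpl1a (1.17) and Utrn (1.14) were higher, and Mrpl18 (-1.98), Prelid3b (-1.74), Ltv1 (-1.68), Commd1 (-1.65), Tcp1 (-1.60), Chrac1 (-1.43), Ctnnbl1 (-1.09), Atp5e (-1.08) and Cct4 (-1.07) lower. All 8 neighbours of Igf2r, in 1 of the 16 clusters, were lower against wild type, with a median of -1.05, while Igf2r was 4.61-fold higher. This cluster is named after its values were seen. Its neighbours are not separate, since the small nucleolar RNA Gm26130 lies inside Tcp1 and Mrpl18 overlaps Tcp1. Acat3 had only 12 and 20, 12 and 10, and 7 and 6 counts. Library size scaling, which moved the median of all genes from 0.09 to 0.48 here, is not given for these neighbours.

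Marker genes past that size against wild type were Gata6 (-2.62), Sox17 (-3.09), Sox7 (-1.93), Foxa2 (-2.14), Pdgfra (-2.06), Dab2 (-4.26), Cubn (-4.90) and Amn (-1.31) of the endoderm, Utf1 (-2.19) of embryonic stem cells, Eomes (1.23), Tfap2c (1.81), Krt7 (1.59), Hand1 (1.12), Krt8 (-1.82) and Krt18 (-2.43) of the trophectoderm, Map2 (2.18) and Pax6 (-1.13) of the neuroectoderm, and Tbx6 (1.46), T (-3.64) and Kdr (-1.33) of the mesoderm. After transfection, against the knockout, they were Utf1 (-1.28), Col1a1 (1.39), Krt7 (3.60), Hand1 (1.03), Sox1 (-1.39) and Pax6 (-1.23), besides the endoderm genes given above.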
